A study of Mus musculus with 18 samples.

Results

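Btg1, Btg2, Tob1 and Tob2 are 4 antiproliferative genes of the BTG/TOB family, and this account follows the microRNA (miRNA) contacts on their transcripts in mouse thymocytes. The 4 genes were taken by name, with every chimeric read on the gene's strand inside its RefSeq span (build GRCm38.p6) counted as theirs, out of 19754 genes whose span held at least 1 read. The high level of Btg2 in the wild-type miR-181-enriched libraries was known when the genes were chosen, so levels in the enriched libraries are given as a description with no test. Btg2 lies on chromosome 1 from 134074865 to 134079155, minus strand (4291 nt), and held 4044 reads, which is 94.3% of all reads of the 4 genes. Btg1 lies on chromosome 10 from 96617001 to 96622813, plus strand (5813 nt), and held 82 reads. Tob1 lies on chromosome 11 from 94209842 to 94215495, plus strand (5654 nt), and held 42 reads. Tob2 lies on chromosome 15 from 81848270 to 81858326, minus strand (10057 nt), and held 119 reads. Exon, intron and UTR classes of the positions were not analysed here.

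The assay was miR-eCLIP, in which UV light (254 nm) fixes RNA to Argonaute 2 (Ago2), the complexes are immunoprecipitated (IP), and the bound miRNA is joined to the fragment beside it. Sequencing such a chimera shows which miRNA touched which position. Thymocytes came from mice at 6 weeks of age, either wild type (C57BL/6) or of the strain B6.Mirc14tm1.1Ankr, labelled miR181a/b-1-KO and called the knockout here; members of the miR-181 family are also encoded at other loci. Each genotype had 3 libraries of the Ago2 IP alone, called the IP below, and 3 that were also enriched for miR181-5p, called enriched, which makes 4 groups; the 6 inputs among the 18 samples were not analysed here. The labels do not say that libraries came from separate animals, so p-values measure the spread between these libraries, which may be technical.

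The BTG and TOB proteins slow the cell cycle and bind the CCR4-NOT deadenylase, which shortens the poly(A) tails of mRNAs. Btg1 and Btg2 are known for keeping lymphocytes in a resting state, Btg2 is also a target of p53, and Tob1 and Tob2 additionally bind poly(A)-binding proteins. A miRNA recognises its target mainly through its seed, bases 2 to 8 from the 5′ end, so miRNAs with the same seed are grouped as a family below.

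Chimeric reads per library ranged from 43983 to 117849 in the wild-type IP, 52100 to 67639 in the knockout IP, 194628 to 293149 in the wild-type enriched group and 6832 to 19264 in the knockout enriched group. The miR-181-5p family (miR-181a, b, c and d) gave 31.1% ± 1.09 (SD, n = 3) of wild-type and 1.38% ± 0.0595 of knockout IP reads, which checks the labels. All 8 thymocyte markers had reads in the wild-type IP (1779 reads) and 7 of 8, all but Ptcra, in the knockout (931 reads). Marker reads for B cells (2 and 0), myeloid cells (5 and 5), thymic epithelium (0 and 0) and erythroid cells (9 and 5) were few in both. In the knockout enriched group, libraries 2 and 3 agreed within sampling noise (chi-square over 150 genes, p = 0.172), while every other pair within a group differed (p of 0.0308 or less). Library 3 shared 4.93% of its distinct reads with library 2 and 4.0% with library 1, so both were kept, and the main value is also given with 2 and 3 as 1 sample.

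The reads on Btg2 named 56 miRNAs, and a few seed families carried most of them. The sequences are those of the miR-181-5p members, which share one seed, and of the most frequent member of the miR-142a-3p, miR-15/16, miR-17 and miR-25/92 families; they come from RefSeq (build GRCm38.p6), where 288 of the 374 miRNA names in the reads matched. Capitals mark the seed.
miR-181a-5p: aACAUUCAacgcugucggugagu
miR-181b-5p: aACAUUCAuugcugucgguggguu
miR-181c-5p: aACAUUCAaccugucggugagu
miR-181d-5p: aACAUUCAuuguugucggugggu
miR-142a-3p: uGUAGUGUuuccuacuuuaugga
miR-16-5p: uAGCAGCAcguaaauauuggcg
miR-17-5p: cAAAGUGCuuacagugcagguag
miR-25-3p: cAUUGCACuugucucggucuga
The 4 miR-181 members have the seed ACAUUCA and differ only in the bases after it. The miR-15/16 family has AGCAGCA (miR-16-5p, miR-15a-5p and miR-15b-5p on Btg2), the miR-17 family AAAGUGC (miR-17-5p, miR-20a-5p, miR-20b-5p, miR-93-5p and miR-106a-5p) and the miR-25/92 family AUUGCAC (miR-25-3p, miR-32-5p and miR-363-3p).

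Without enrichment, Btg2 had fewer chimeric reads in the knockout, where 9 reads of miR-181 were seen against 354 in the wild type, and its reads with other miRNAs were not called. The wild-type libraries held 299, 223 and 125 Btg2 reads, or 2537, 3228 and 2842 reads per 1000000 chimeric reads (rpm). The knockout libraries held 122, 123 and 89 reads, or 2007, 1818 and 1708 rpm. Every knockout library lay below every wild-type library, with means of 1845 ± 151 against 2869 ± 346 rpm (SD, n = 3). Among all 1615 genes tested, 13.5% had knockout libraries that all lay below the wild type without overlap. The log2 fold change of Btg2 was −0.65 (SE 0.12, 95% interval −0.90 to −0.40; edgeR quasi-likelihood test, adjusted p = 0.000103). Of the 1615 genes, 10.2% were called in either direction and 6.75% as lower. Where reads of the same position, strand and miRNA in a library (repeats) were counted once, the value was −0.39 (SE 0.12; edgeR, adjusted p = 0.0296). Reads of the thymocyte markers also summed to less in the knockout, at 5048 to 5248 rpm against 6571 to 8019 rpm. Cd4 fell most, from 1987 to 677 rpm, and 75.9% of its wild-type IP reads were miR-181. Mean levels of Cd8a (1279 to 731 rpm) and Rag1 (2890 to 2395 rpm) fell too, and those of Thy1, Lck and Ptcra by less. On all reads Cd4 (edgeR adjusted p = 1.43e-11) and Cd8a (0.000333) were called lower. Rag1 (0.0851), Thy1 (0.594) and Lck (0.866) were not called, and Ptcra, with 2 reads against 0, was not tested. Mean levels of Cd8b1 (474 and 481 rpm) and Cd3e (228 and 312 rpm) did not fall. On reads of other miRNAs alone, Cd4 was not called (log2 fold change −0.43, edgeR adjusted p = 0.420). Cd8a (−0.72, edgeR adjusted p = 0.0123) and Rag1 (−0.50, edgeR adjusted p = 0.00147) were called lower there. Cd8b1, Cd3e, Lck and Thy1 were not. The part of the markers in the fall at Btg2 was not tested. In bulk counts of chimeric reads, fewer contacts per transcript, fewer cells of a type and less RNA per cell cannot be told apart.

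**Figure D1:**
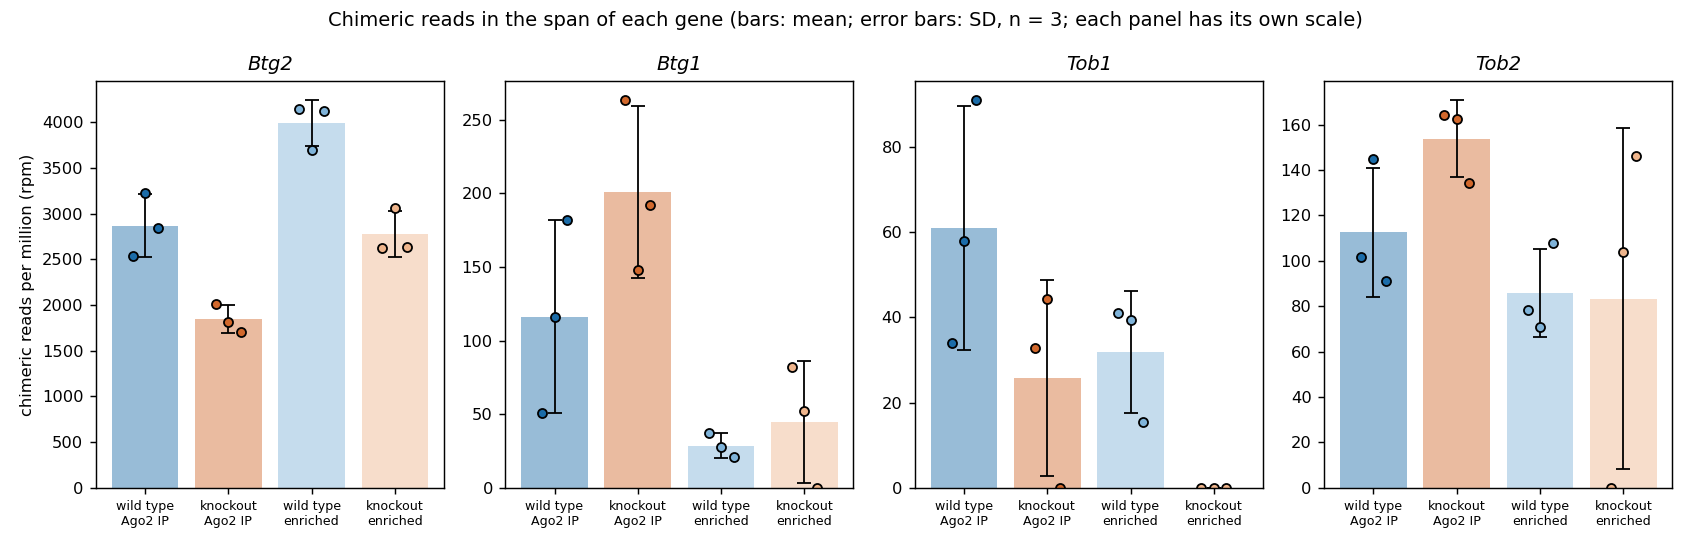
Chimeric reads per 1000000 (rpm) in the span of each gene, by group; bars are means, error bars the SD over 3 libraries and points the libraries, and each panel has its own scale. Btg2 sits at 1708 rpm or more in every library, the other genes at 263 rpm or less, and the Btg2 points of the genotypes do not overlap within either assay.

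Split by miRNA, the miR-181 reads on Btg2 numbered 159, 125 and 70 in the wild-type IP and 4, 2 and 3 in the knockout. They made up 55.1% ± 1.65 of Btg2 reads in the wild type against 2.76% ± 0.982 in the knockout (SD, n = 3). This share was high for thymocyte transcripts: over 1014 protein-coding genes with at least 50 wild-type IP reads the median was 28.6%, and 57 genes (5.62%) lay above Btg2. The reads of all other miRNAs on Btg2 numbered 140, 98 and 55 in the wild type against 118, 121 and 86 in the knockout. Per 1000000 reads of other miRNAs that is 1867 ± 178 against 1819 ± 146, and the libraries overlapped. The log2 fold change of these reads was −0.02 (SE 0.14, 95% interval −0.29 to 0.25; edgeR, adjusted p = 0.976). Of the 1396 genes tested this way, 2.29% were called, and Btg2 was not among them; the interval leaves room for changes within its bounds.

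The part of each library's miR-181 reads that fell on Btg2 overlapped between the genotypes of the IP. Out of 1000000 miR-181 reads, 4478, 5854 and 4929 fell on Btg2 in the wild-type libraries and 4981, 2128 and 4000 in the knockout libraries. The knockout values rest on 9 reads in all, 4 of miR-181a, 4 of miR-181d, 1 of miR-181c and 0 of miR-181b, where a count of 0 in 9 allows a share of up to 33.3%.

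In the enriched libraries Btg2 held 1215, 937 and 802 reads in the wild type (4145, 3696 and 4121 rpm) and 32, 59 and 18 in the knockout (2626, 3063 and 2635 rpm). The means were 3987 ± 252 and 2774 ± 250 rpm (SD, n = 3), or 2737 ± 157 rpm for the knockout with libraries 2 and 3 as 1 sample (n = 2). All knockout values lay below all wild-type values, as at 13.3% of the 2743 gene spans with at least 50 reads in these 6 libraries. The order depended on repeats: with each counted once, the wild-type enriched level was 1791 ± 176 rpm and the knockout level 2597 ± 193 rpm. The miR-181 family made up 99.5% of wild-type enriched reads on Btg2 and 90 of 109 reads (82.6%) in the knockout. Of all reads in these libraries it made up 99.0% ± 0.207 and 71.9% ± 1.24 (SD, n = 3), so the wild-type share on Btg2 was near that of the whole libraries.

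By reads per kilobase of gene span, Btg2 ranked 3 among 10352 protein-coding genes with reads in the wild-type IP and 10 among 9839 in the knockout IP. It ranked 3 among 12003 in the wild-type enriched and 4 among 6290 in the knockout enriched libraries. On that scale the wild-type IP level was 669 ± 80.7 rpm per kb of span for Btg2, 20.0 ± 11.3 for Btg1, 11.2 ± 2.83 for Tob2 and 10.8 ± 5.06 for Tob1 (SD, n = 3). Btg2 stood apart, and the libraries of the other genes overlapped.

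The reads on Btg2 were not spread evenly. Sites were taken as windows of 30 nt to either side of a local maximum with at least 20 reads over all libraries, and 23 such windows, numbered from the annotated start of the gene, held 95.9% of its reads. Windows can abut, so neighbours may be parts of one peak. Window 9 (chr1:134076423-134076483, minus strand, centred 2702 nt from the start) held 2253 reads, and windows 8, 9 and 10 together (chr1:134076364-134076543) cover 180 nt, or 4.19% of the span. This stretch was chosen on the miR-181 reads of the wild-type enriched libraries, 82.7% ± 2.79 of which lay in it. In the wild-type IP, whose reads helped to set the windows but not the choice among them, 79.9% ± 7.04 of the miR-181 reads on Btg2 lay there, as did all 9 of the knockout. Of the reads of other miRNAs, 18.0% ± 3.77 lay there in the wild type against 20.3% ± 3.22 in the knockout.

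**Figure D2:**
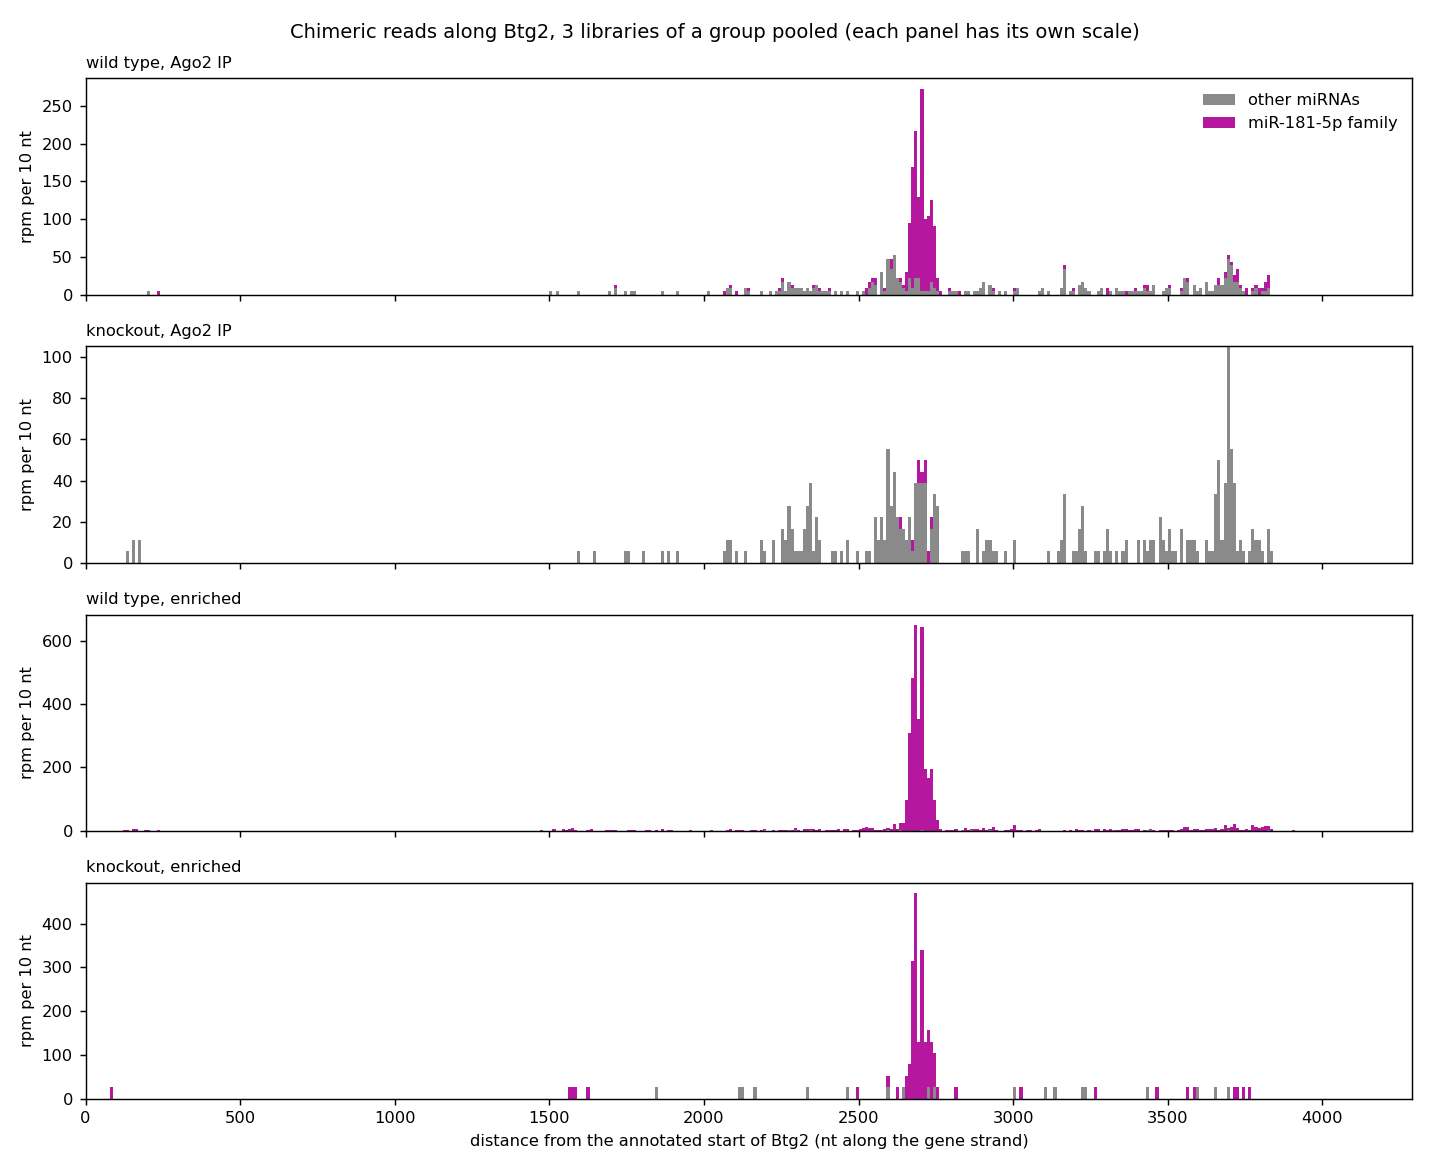
Chimeric reads along Btg2 in bins of 10 nt, by distance from the annotated start, with the 3 libraries of each group pooled and each panel on its own scale; purple is the miR-181-5p family and grey all other miRNAs. The purple peak near 2702 nt is present in the wild-type IP and both enriched groups, and the knockout IP panel is almost all grey.

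At window 9 the wild-type IP libraries had 124, 75 and 46 reads and the knockout libraries 15, 14 and 9. The groups did not overlap, at 1061 ± 21.5 against 209 ± 37.0 rpm (SD, n = 3); knockout libraries lay below without overlap at 26.2% of the 164 sites tested. Its log2 fold change was −2.60 (SE 0.21; edgeR, adjusted p = 1.8e-08). Of the 164 sites, 37.8% were called and 26.2% were called lower, and 2 of the 4 Btg2 windows tested were among the latter. These were window 9 and window 8, which entered the test through its wild-type libraries, as described below. In the wild type 92.2% of the reads at window 9 were miR-181 (226 of 245). Repeats made up 78.0% of its reads over all libraries, and with repeats counted once the log2 fold change was −1.82 (SE 0.23). The reads of other miRNAs at window 9 numbered 19 in the wild type against 31 in the knockout.

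Window 8 (chr1:134076484-134076543) was also lower, at 27, 18 and 11 reads in the wild type against 11, 8 and 5 in the knockout, or 247 ± 16 against 132 ± 44.1 rpm. Its log2 fold change was −1.14 (SE 0.37; edgeR, adjusted p = 0.0214), and the call was lost under 6 of 11 alternatives, among them leaving out knockout library 2 (−1.10) or 3 (−1.003). Window 8 passed the filter on low counts through the wild-type libraries, while knockout libraries 2 and 3 held under 10 reads. Its entry into the test was therefore not independent of the direction of the call. Window 8 borders window 9, and half-widths of 20 or 50 nt gave no window with its centre. Window 7 (chr1:134076544-134076604) had a log2 difference of −0.38 (SE 0.36; adjusted p = 0.472 with edgeR). In the wild type 16.2% of its reads were miR-181, against 28 of 56 at window 8. Window 21 (chr1:134075430-134075490, 3695 nt from the start) had 29, 13 and 6 reads in the wild type against 9, 18 and 23 in the knockout. The libraries overlapped, at 190 ± 54.9 against 285 ± 148 rpm, and the log2 fold change was 0.19 (SE 0.39; edgeR, adjusted p = 0.799). Window 10 and the other 18 windows had too few reads to be tested; in the wild-type IP, window 10 held 38 reads, of which 34 were miR-181, while in the knockout it held 13, of which 1 was miR-181.

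**Figure D3:**
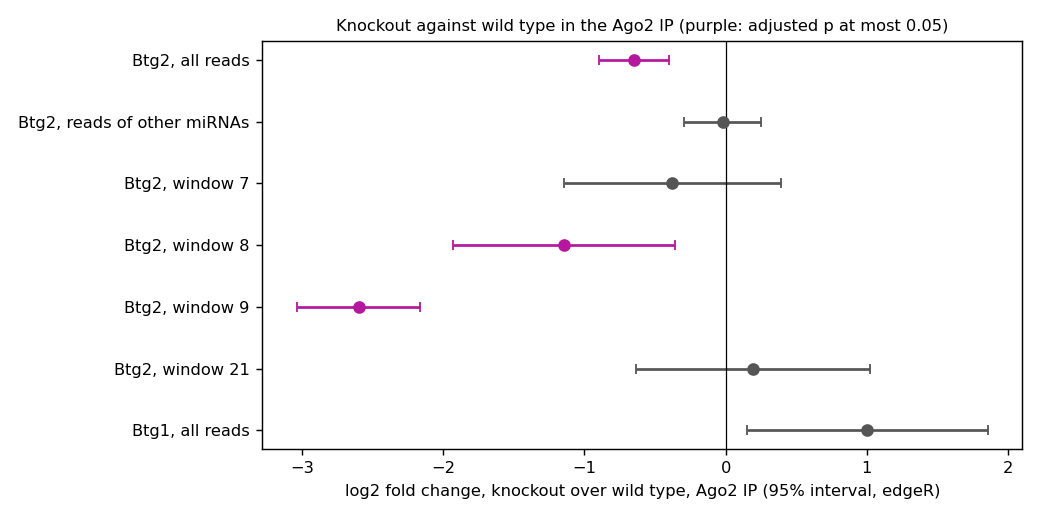
Log2 fold change of knockout over wild type in the Ago2 IP (x axis) with its 95% interval from edgeR, for the gene spans and Btg2 windows that were tested; purple marks an adjusted p of at most 0.05. Window 9 lies lowest at −2.60, and the reads of other miRNAs on Btg2 centre on −0.02.

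The fullest Btg2 windows of miR-142a-3p, the miR-17 family and the miR-25/92 family lay outside the miR-181 stretch in both genotypes. For miR-142a-3p, an abundant miRNA of blood cells, 64 wild-type and 72 knockout IP reads lay on Btg2. Of these 136 reads, 43 lay in windows 3 and 4 (chr1:134076850-134076909 and chr1:134076776-134076832), where they were 69.4% of the reads of other miRNAs. Windows 3 and 4 held 21 and 22 of the 136. In the miR-181 stretch, windows 8, 9 and 10 held 9, 18 and 3. The miR-17 family, from the clusters known for driving lymphocyte proliferation, had 65 and 80 reads on Btg2. Of these 145, 83 lay in windows 20 and 21, 35 from the wild type and 48 from the knockout, and they were 72.8% of other-miRNA reads there. The miR-25/92 family had 31 and 34 reads, of which 35 lay in windows 12 and 14 (chr1:134076213-134076273 and chr1:134075933-134075992), making up 71.4% of the other-miRNA reads of those windows. Window 14 held 23 reads of this family, window 12 held 12 and window 8, in the miR-181 stretch, held 9. The pairs of windows named for the families were picked from the same reads and are a description.

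The miR-15/16 family, known for restraining the cell cycle, lay partly in the miR-181 stretch and partly in window 7 beside it. It had 58 and 53 reads on Btg2, and 76 of these 111 lay in windows 7 to 10, where they were 43.4% of the reads of other miRNAs. Window 7, outside the stretch, held 23 of them, and windows 8, 9 and 10 held 22, 22 and 9. Smaller families followed: 8 of 18 miR-29 reads lay in window 17, 7 of 11 miR-21 reads in window 21 and 10 of 18 miR-484 reads in windows 3 and 4. The let-7 family, with 22 and 21 reads, had at most 4 reads in any window of Btg2. The other 12 windows held between 20 and 91 reads each over all libraries. The fullest, window 23 (chr1:134075326-134075386), is the last before the annotated end, and 12 of its 19 wild-type IP reads were miR-181 against 0 of 11 in the knockout.

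**Figure D4:**
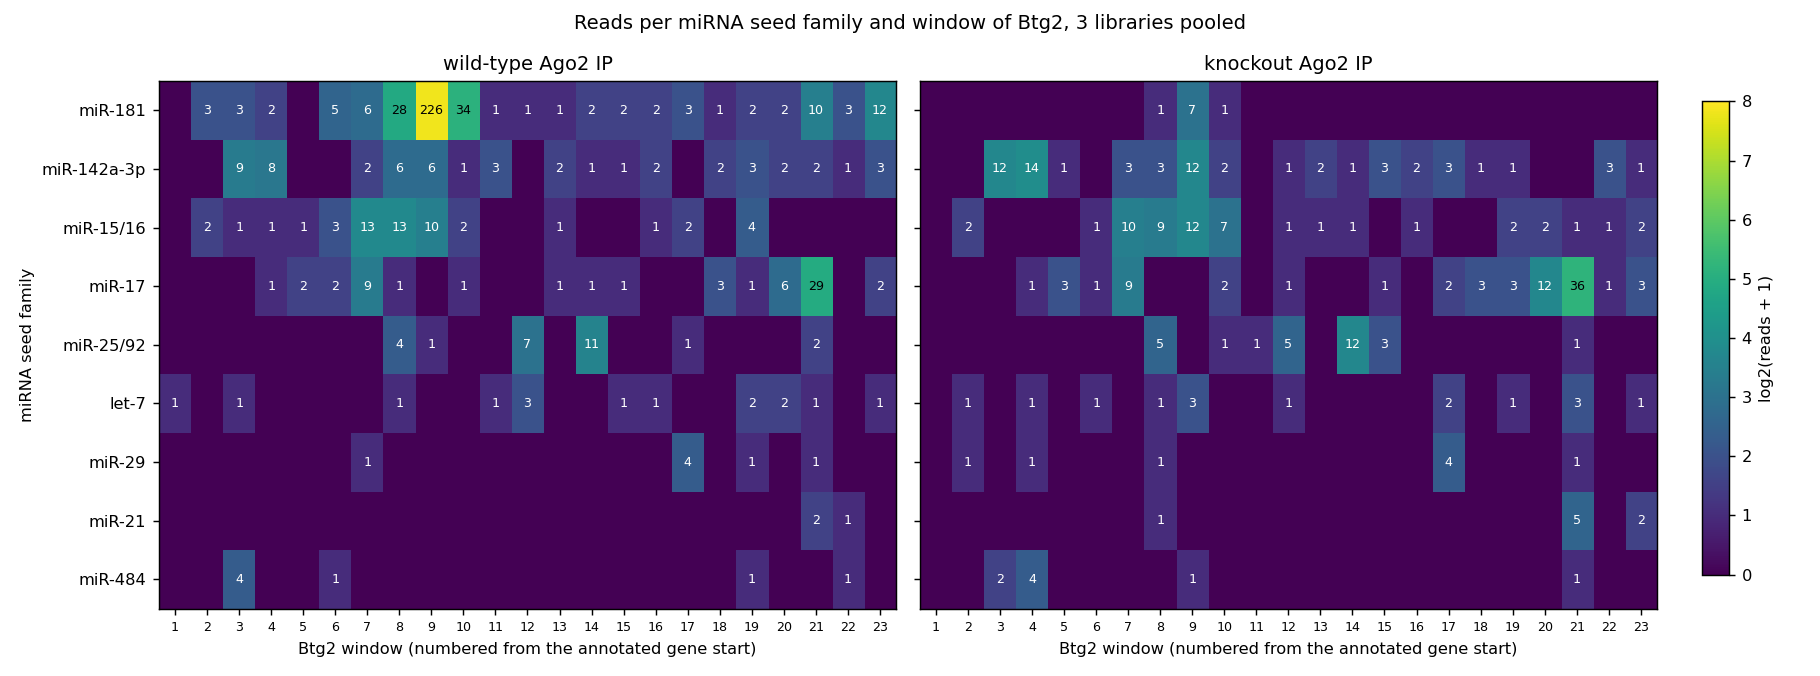
Reads of each seed family (rows) in each Btg2 window (columns, numbered from the gene start), with 3 Ago2 IP libraries of a genotype pooled per panel; numbers are reads and colour is log2(reads + 1). The miR-181 row reaches 226 reads at window 9 in the wild type against 7 in the knockout, while miR-142a-3p at windows 3 and 4, miR-25/92 at 12 and 14 and miR-17 at 21 appear in both panels.

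Shares of 4 of the larger other families on Btg2 lay apart from their shares of whole libraries. In the wild-type IP, miR-15/16 gave 9.48% ± 2.19 of Btg2 reads and 4.67% ± 0.0665 of all reads. The miR-25/92 family gave 4.68% ± 2.17 of Btg2 reads and 0.823% ± 0.0195 of all reads. In the other direction, miR-142a-3p gave 9.83% ± 0.219 on Btg2 and 27.6% ± 0.744 of all reads, and let-7 3.18% ± 1.67 and 11.6% ± 0.112. In the knockout IP each of the 4 lay on the same side: miR-15/16 15.7% ± 4.19 on Btg2 against 6.50% ± 0.134 of all reads, miR-25/92 10.1% ± 1.21 against 1.14% ± 0.00338, miR-142a-3p 21% ± 4.68 against 39.6% ± 1.03 and let-7 6.22% ± 0.948 against 16.4% ± 0.740 (SD, n = 3). The miR-17 family stood at 10.1% ± 1.76 of Btg2 reads and 10.1% ± 0.289 of all reads in the wild-type IP. In the knockout IP it stood at 24.4% ± 5.22 and 14.3% ± 0.465, higher on Btg2 in 3 of 3 libraries. The totals behind these shares include miR-181, which was 55.1% of Btg2 reads and 31.1% of all reads in the wild-type IP. In the knockout IP it was 2.76% and 1.38%. Out of each library's miR-17 family reads, 0.268%, 0.262% and 0.319% lay on Btg2 in the wild-type IP. The knockout IP libraries gave 0.275%, 0.318% and 0.340%, so the genotypes overlapped. These shares were not tested.

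Within the miR-181 family, miR-181a took a larger part on Btg2 than elsewhere in the knockout enriched libraries. Of 90 miR-181 reads there, 70 were miR-181a, 11 miR-181b, 3 miR-181c and 6 miR-181d. The miR-181a share was 76.8% ± 7.94 on Btg2 against 44.1% ± 0.728 of all miR-181 reads outside the miR-181 hairpins, and the miR-181c share 4.06% ± 2.09 against 22.9% ± 0.716 (SD, n = 3). Every library showed this order for both, also with repeats counted once (73.8% ± 7.14 against 43.6% ± 0.705 for miR-181a). In the wild type the gap was smaller and depended on repeats. The miR-181a share was 84.1% ± 1.66 against 76.1% ± 0.496 in the Ago2 IP and 89.7% ± 2.0 against 80.9% ± 1.93 in the enriched libraries. With repeats counted once it was 79.6% ± 5.75 against 75.7% ± 0.600 and 77.2% ± 1.80 against 78.9% ± 1.67, so the order in the enriched libraries turned. That count allows 1 read per position and miRNA, which on a narrow peak cuts a frequent member more than a rare one. In wild-type enriched library 1 it left 306 of 1209 miR-181 reads on Btg2. It therefore cannot decide whether the gap was real.

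Btg1, the closest relative of Btg2, had 6, 8 and 8 reads in the wild-type IP and 16, 10 and 10 in the knockout. The means were 116 ± 65.5 and 201 ± 58.2 rpm (SD, n = 3), with overlapping libraries. The log2 fold change was 1.003 (SE 0.43, 95% interval 0.15 to 1.86; edgeR, adjusted p = 0.135), which did not pass the threshold. Without wild-type library 1 it was 0.45. In the Ago2 IP miR-142a-3p led with 5 and 11 reads, followed by miR-22-3p (2 and 4), miR-20a-5p (3 and 1) and miR-16-5p (1 and 2); the next place was a tie of 7 miRNAs with 2 reads each, let-7c-5p among them. The miR-181 family gave 5 of 22 reads in the wild type against 1 of 36 in the knockout. Of all reads in the wild-type and knockout IP, miR-142a-3p made up 27.6% and 39.6%, and miR-181 31.1% and 1.38%. These shares stand beside the counts here and for Tob2 and Tob1 below, where leading by reads shows no preference for the gene. In the enriched libraries Btg1 had 11, 7 and 4 reads in the wild type, 21 of the 22 from miR-181a and none from miR-181b, which allows a miR-181b share of up to 14.3% of its 21 miR-181 reads. The knockout enriched libraries had 1, 1 and 0. Of all wild-type enriched reads 99.0% were miR-181, so a high miR-181 share there is not particular to Btg1.

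Tob2 had 12, 10 and 4 reads in the wild-type IP and 10, 11 and 7 in the knockout, or 113 ± 28.5 and 154 ± 16.9 rpm (SD, n = 3), with overlap. Its miR-181 reads numbered 8 of 26 in the wild type against 0 of 28 in the knockout, where a count of 0 allows a share of up to 10.7%. The leading other miRNAs were miR-142a-3p (2 and 6), miR-25-3p (3 and 4), let-7d-5p (3 and 2), miR-20b-5p (2 and 3) and, tied at 3 reads, miR-16-5p (0 and 3) and miR-24-3p (1 and 2). In the wild-type enriched libraries Tob2 had 23, 18 and 21 reads, 39 of miR-181a and 22 of miR-181b among 62. The miR-181b part differed by library, at 13 of 22, 5 of 18 and 4 of 21 miR-181 reads. The knockout enriched libraries had 0, 2 and 1 reads, none of them miR-181.

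Tob1 had the fewest reads. The wild-type IP libraries held 4, 4 and 4 and the knockout libraries 2, 3 and 0, or 60.9 ± 28.6 and 25.8 ± 23 rpm (SD, n = 3), with overlap. Of these, 6 of 12 and 1 of 5 were miR-181, all miR-181a, and 3 and 2 were miR-142a-3p; no other miRNA had more than 1 read. The wild-type enriched libraries, where 99.0% of all reads were miR-181, held 12, 10 and 3 reads, all miR-181 (23 miR-181a and 2 miR-181b). The knockout enriched libraries held 0, 0 and 0, below floors of 3 reads that correspond to 246, 156 and 439 rpm, so a level like the 31.9 ± 14.3 rpm of the wild type was not detectable at this depth. Of the 4 genes, 2 passed the filter on low counts; Tob1 and Tob2 did not and were not tested, and Btg1, Tob1 and Tob2 had no window of at least 20 reads.

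Of the remaining family genes, Btg3 had 0 and 3 reads in the wild-type and knockout IP and 9 in the wild-type enriched libraries, and Btg4, an oocyte gene, had none in any library. The 15 genes of the deadenylases and poly(A)-binding proteins that BTG and TOB proteins work with all had reads. In the Ago2 IP 6 were tested, and 1 was called lower and 1 higher in the knockout. Of all 1615 genes 6.75% were called lower and 3.41% higher. The median log2 fold change was 0.02 for the 6 against 0.02 over all 1615 genes. Cnot2, a scaffold subunit of CCR4-NOT, fell by 0.81 in log2 terms (SE 0.21; edgeR, adjusted p = 0.00658), from 738 ± 130 to 444 ± 16.5 rpm (SD, n = 3). This call was lost with DESeq2 and without wild-type library 1 (−0.70). Cnot4, an E3 ubiquitin ligase that joins the complex, rose by 0.71 (SE 0.23; edgeR, adjusted p = 0.0398), from 304 ± 30.1 to 513 ± 58.2 rpm, a call lost under 8 of 12 alternatives, 5 of which left out 1 library. In reads of other miRNAs 6 of the list were tested and 0 passed with edgeR, 1 at an unadjusted p under 0.05, and 0 passed with DESeq2, 0 at an unadjusted p under 0.05. The log2 fold change in these reads was 0.37 for Cnot4 (SE 0.25, edgeR adjusted p = 0.600) and −0.65 for Cnot2 (SE 0.24, edgeR adjusted p = 0.132). Of the wild-type IP reads, 9.86% were miR-181 at Cnot4 and 36.3% at Cnot2. On all reads DESeq2 called 0 of the 6, with 2 at an unadjusted p under 0.05.

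Across the 12 libraries, the genes whose log2(rpm + 50) was most like that of Btg2, among 1203 genes with at least 200 reads, were Hspa8 (Pearson r = 0.964), Ggnbp2 (0.944), Zkscan1 (0.939), Kif21b (0.938) and Dhx36 (0.932). These points share libraries, groups and depth, and the values are a description. Like Btg2, each had its highest mean in the wild-type enriched libraries and its lowest in the knockout IP. For Hspa8 these were 3710 and 38.2 rpm. This order rests on all reads. With repeats counted once, Btg2 stood at 1791 rpm in the wild-type enriched libraries, below 1872 rpm in the knockout IP.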

How the data were processed

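The deposited files list, per library and strand, positions 1 nt wide with a miRNA name and a count of 1 read per line; nothing was scaled, and no headers are present. Genome builds mm10 and GRCm38.p6 and the tools Bowtie2 2.4.5, STAR 2.7.10, SAMtools 1.11, UMI-tools 1.1.1 and bedtools 2.30.0 are named per the submitters' processing notes, with no settings, so whether repeated lines are separate molecules is not given in the sources used here. Sequencing was paired 150-nt reads, per the labels' protocols.

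Reads were counted in RefSeq gene spans on the gene's strand, taken from the RefSeq tables for 14399 genes and from the majority of reads for 5355. Levels are reads per 1000000 chimeric reads (rpm). That total includes miR-181, which was 31.1% of wild-type and 1.38% of knockout IP reads, so genes with few miR-181 reads can rise in rpm through it. Knockout and wild-type Ago2 IP libraries, grouped by the labels, were compared with edgeR 4.0.16 in R 4.3.3 (quasi-likelihood F test after TMM scaling; features kept by filterByExpr at a minimum of 10 reads; Benjamini-Hochberg adjustment over all of them; adjusted p at most 0.05) over gene spans, sites, and gene spans without miR-181 reads. DESeq2 1.42.0, library sizes alone, no filter, repeats counted once, both strands, half-widths of 20 and 50 nt, a replicate block and leaving out each library were alternatives; counting knockout enriched libraries 2 and 3 as 1 sample, and the alternatives to the miR-181 composition and left-out libraries for levels, were added after seeing the data. On gene counts simulated at this depth, 52.9% of 2-fold and 84.7% of 4-fold changes were recovered. The spread in that simulation was set alike for every gene and not estimated from these libraries, and the recovery depends on it too. Floors (3 reads) cover counting error only; the 95% intervals of fold changes come from the edgeR fit and include the spread between libraries.

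The members and lists were chosen with earlier results of these data known. Named were the 4 genes, the 23 Btg2 windows with at least 20 reads (12 of them by their range), per gene miR-181 and the 5 other miRNAs with most Ago2 IP reads, called genes among 15 of deadenylation, Btg3, Btg4 and the 5 genes most like Btg2. Other seed families were named after their values were seen. Same-numbered wild-type and knockout libraries did not deviate together (correlations of −0.10, −0.02 and −0.05 over 1615 genes), so numbers were not used as pairs.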

Additional observations from a re-analysis of the deposited data

How the results depend on the processing

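Btg2 was lower in the knockout Ago2 IP under all 12 alternatives run (log2 fold change −0.76 to −0.39, edgeR or DESeq2 adjusted p 1.00e-05 to 0.0296), as was window 9 under 13 (−2.90 to −1.82). Btg1 was called under none of 12 (0.45 without wild-type library 1 to 1.33 without wild-type library 3). Btg2 reads of other miRNAs, near 0, ranged from −0.10 to 0.053 without one library (0.053 without wild-type library 2, 0.04 without knockout library 3), and window 21 from −0.25 to 0.44 (−0.07 without wild-type library 3, −0.25 without knockout library 3). Called gene spans numbered 164, but 58 with DESeq2 (5 higher and 53 lower, against 55 and 109) and 115 to 162 without one library. Called sites numbered 62 (19 higher and 43 lower), 439 with no filter, 39 with repeats counted once, 54 to 96 without one library (96 without knockout library 1), and 81 with library sizes alone (40 higher and 41 lower), which moved the median of all sites from 0.05 to 0.32. Genes called on other miRNAs numbered 32, 8 with DESeq2, 20 with no filter, and 16 to 27 without one library (18 and 16 without knockout libraries 1 and 2). Of 84 alternatives to the levels 80 stayed within 1 SD; repeats counted once gave 2473 rpm for Btg2 in the wild-type Ago2 IP and 1791 rpm in the wild-type enriched, 41.4 for Btg1 and 121 for Tob2 in the wild-type enriched libraries. That count allows 1 read per position and miRNA in a library, and the cause was otherwise not tested. The replicate block gave 129 gene spans, 56 sites and 27 genes on other miRNAs; it ended the calls of window 8 (−1.14, edgeR adjusted p = 0.0551) and Cnot4 (0.74, adjusted p = 0.0529) and no other named call. Depth limits Btg1, Tob1 and Tob2 most, and 1 read was worth 146 rpm in the shallowest library.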
